A study of Mus musculus with 19 samples.

Results

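The 45 genes described here encode the proteins that take a cell through mitosis: the kinases and cyclins of mitotic entry, the spindle, the kinetochore, the spindle checkpoint, the trigger of anaphase, the machinery of cytokinesis and the chromosome scaffold. They were chosen by gene symbol, as a list of textbook mitotic genes, from the 47643 genes of the deposited expression table. Earlier results of these data were known when this list and the further gene lists below were chosen. All 45 were found, Sgo1 under its older symbol Sgol1, and all 45 were among the 13520 genes that passed the expression filter (at least 1 TPM in at least 4 libraries; TPM is transcript abundance corrected for gene length and library depth). RNA was sequenced from mouse cortex at embryonic day 14.5, from a dorsal and a medial piece. Control dorsal (n = 6) and control medial (n = 5) libraries came from wildtype embryos. Mutant dorsal (n = 4) and mutant medial (n = 4) libraries came from GFAP::Cre; SmoM2 embryos, in which Cre driven by a GFAP promoter switches on SmoM2, a constitutively active form of the Hedgehog signal transducer Smoothened. The recombined cells are therefore those in which that promoter has been active and their descendants, and each library is a dissected tissue piece that also holds other cells.

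At mitotic entry, cyclin B bound to Cdk1 drives chromosome condensation and spindle assembly, and the transcription factor Foxm1, together with the MuvB complex and B-Myb, switches on most genes of this programme in G2. The spindle checkpoint then holds the anaphase-promoting complex inactive until every kinetochore is attached. Its release lets Cdc20 direct securin and cyclin B to destruction, which frees separase to part the sister chromatids. In the developing cortex these transcripts belong to dividing cells, that is, the radial glia that divide at the ventricular surface and the intermediate progenitors that divide away from it, while postmitotic neurons carry little of them.

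Hedgehog target genes matched the genotype labels. Gli1 lay between 0.2 and 1.08 TPM in the 11 control libraries and between 24.3 and 48.1 TPM in the 8 mutant ones, and Ptch1 lay between 4.0 and 6.63 TPM and between 47.8 and 71.2 TPM. Libraries had between 17357 and 18670 genes above 0 TPM. Defining markers of radial glia, intermediate progenitors and cortical neurons were present in each group, and no marker gene used here was below 1 TPM in every library. The protocol speaks of medial or lateral cortices where the sample labels say dorsal. Control embryos 2, 3 and 4 had Xist between 23.3 and 46.4 TPM in their 6 libraries, and the other libraries had at most 0.354 TPM, so all mutant libraries came from the low side; results that move without these 3 embryos are given with and without them. Whether each library of a group is another embryo is not stated, and the p-values therefore reflect only how much these libraries differ.

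The promoters of several of these genes carry a cell cycle genes homology region (CHR), the element that the MuvB complex binds, close to the start site, together with CCAAT boxes, the element that NF-Y binds. RefSeq promoter entries (GRCm38.p6) matched 37 of the 45 genes. In the 250 bases before the start, a CHR (TTTGAA or TTCGAA, on either strand) was found in 14 of the 37 (37.8%), against 1396 of 9985 tested genes with an entry. A CCAAT on either strand was found in 27 of the 37 (73.0%), against 41.1% of the 9985, and both elements together in 14 (37.8%) against 5.66%. In these entries no CHR overlapped a CCAAT. Promoters with a CHR near the start are shown for genes described below: Cdk1, Cdc20, Top2a and Ncapg, whose mutant and control libraries did not overlap, and Mki67, whose libraries did. Each line gives the 120 bases before the start, 5′ to 3′ on the gene's own strand. Capitals mark CHR and CCAAT letters, so that a CHR on the opposite strand reads TTCAAA and a CCAAT there reads ATTGG.
Cdk1: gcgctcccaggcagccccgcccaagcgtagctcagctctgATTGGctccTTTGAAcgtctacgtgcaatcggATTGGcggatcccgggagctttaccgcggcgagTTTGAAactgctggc
Cdc20: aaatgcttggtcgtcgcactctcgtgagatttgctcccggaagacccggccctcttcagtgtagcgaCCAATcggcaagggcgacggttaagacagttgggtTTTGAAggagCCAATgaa
Top2a: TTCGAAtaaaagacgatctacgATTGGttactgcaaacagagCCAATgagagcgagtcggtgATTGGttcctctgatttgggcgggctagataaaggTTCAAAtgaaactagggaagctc
Ncapg: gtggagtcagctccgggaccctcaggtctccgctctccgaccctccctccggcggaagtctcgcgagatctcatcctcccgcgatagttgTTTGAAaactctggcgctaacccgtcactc
Mki67: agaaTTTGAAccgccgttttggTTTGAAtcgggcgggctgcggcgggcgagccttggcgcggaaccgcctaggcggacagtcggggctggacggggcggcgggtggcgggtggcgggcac
These windows lie at chr10:69352913-69353032 (minus strand) for Cdk1, chr4:118437344-118437463 (minus) for Cdc20, chr11:99024190-99024309 (minus) for Top2a, chr5:45669805-45669924 (plus) for Ncapg and chr7:135716380-135716499 (minus) for Mki67. The nearest CHR began 15 bases before the start in Cdk1, 18 in Cdc20, 23 in Top2a, 30 in Ncapg and 98 in Mki67. GENCODE M21 places some gene starts further upstream than RefSeq. The last 26 bases of the Cdk1 window, with its nearest CHR, the last 9 of Cdc20 and the last 6 of Ncapg lie inside the GENCODE gene. Bub3 also had a CHR, 43 bases before the RefSeq start, but all 120 bases of its window lie inside the GENCODE gene and are not printed. Of the 14 genes with a CHR, 13 were higher in the mutant dorsal cortex. So were 22 of the 23 whose entry held none and 8 of the 8 without an entry. Since 43 of the 45 genes rose there, these shares had little room to differ, and no conclusion on the CHR is drawn from them. The exception with a CHR was Ncapd2, whose CHR lies 123 bases before the RefSeq start. The GENCODE start, at chr6:125191701, lies further upstream and nearer to this CHR. The CHRs of Bub1b (188 bases), Ccnb2 (167) and Smc2 (145), which rose, lay further from their RefSeq starts than that of Ncapd2. Whether the distance mattered was not tested. These matches describe letters in a window and say nothing of which factor was bound.

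Mitotic transcripts were more abundant in the mutant cortex in both pieces. In the dorsal cortex 43 of the 45 genes rose and 0 fell (limma, Benjamini-Hochberg adjusted p under 0.05; 0 fell at an unadjusted p under 0.05 as well), where 9.93% of all tested genes rose and 27.6% fell. The median log2 change of the 45 genes was 0.70, against -0.10 for all tested genes, and the single values ran from 0.13 to 0.88. For 41 of the 45 every mutant library lay above every control library, a pattern seen in 7.25% of all tested genes. In the medial cortex 41 rose and 0 fell (0 also at an unadjusted p under 0.05), where 9.44% of all tested genes rose and 30.2% fell. There the median was 0.53, against -0.11 for all tested genes, with a range from 0.05 to 0.68, and the libraries of 38 genes did not overlap, against 7.63% of all tested genes. All log2 changes are on the scale log2(TPM + 1), with fitted standard errors. The 41 genes that rose medially were among the 43 that rose dorsally. Because the tissue was measured in bulk, fewer cells of a type and less RNA per cell cannot be told apart, and the same holds for more of either.

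The counts of genes over the whole table depend on scaling. After rescaling by the median ratio between libraries, 2112 of all tested genes rose and 1921 fell in the mutant dorsal cortex, in place of 1343 and 3727, and 2183 rose and 2258 fell in the medial cortex, in place of 1276 and 4081. Quantile normalization gave 1959 and 2173 in the dorsal and 2164 and 2275 in the medial cortex. The 45 genes kept a positive median under these scalings, 0.79 and 0.77 in the dorsal and 0.64 and 0.59 in the medial cortex. Without control embryos 2, 3 and 4, 41 of the 45 rose in the dorsal cortex and 36 in the medial cortex. Of the 13247 genes tested in that setting, 862 rose and 2030 fell dorsally, and 768 rose and 2317 fell medially.

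The summed share of these genes in all transcripts shows the same order. In control dorsal cortex the 45 genes took 0.316% ± 0.015 of all TPM (SD, n = 6), with single libraries between 0.294% and 0.335%. The mutant dorsal libraries 1 to 4 had 0.523%, 0.467%, 0.568% and 0.459%, all above the control dorsal range. Control medial libraries 2 to 6 had 0.396%, 0.404%, 0.384%, 0.435% and 0.370%, which lie between the 2 dorsal groups without touching either. The mutant medial libraries had 0.533%, 0.568%, 0.606% and 0.550%, above every control library but overlapping the mutant dorsal ones.

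**Figure D1:**
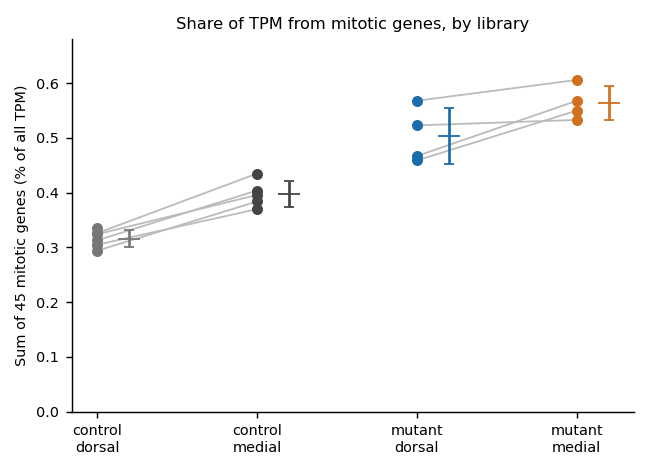
Summed TPM of the 45 mitotic genes as a percentage of all TPM in each library, by group. Points are libraries, bars are group means ± SD, and grey lines join the pieces of 1 embryo. The control dorsal libraries sit lowest (0.294% to 0.335%) and the mutant medial ones highest on average (0.533% to 0.606%, overlapping the mutant dorsal ones).

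All 7 genes of mitotic entry rose in both mutant pieces, with median log2 changes of 0.74 (dorsal) and 0.56 (medial). Cdk1, the kinase that drives entry into mitosis (GRCm38 chr10:69335146-69352938, minus strand, GENCODE M21), had 82.7, 87.5 and 94.5 TPM as lowest, median and highest of the control dorsal libraries and 158, 141, 169 and 144 TPM in the mutant dorsal ones. Its control medial libraries had 115, 118, 112, 122 and 98.9 TPM, and its mutant medial ones 166, 177, 180 and 167 TPM. No mutant library overlapped a control library of its region. The log2 change was 0.79 ± 0.06 (SE) in the dorsal cortex (adjusted p = 2.47e-08) and 0.61 ± 0.06 in the medial cortex (adjusted p = 1e-06). Ccnb2, a B-type cyclin, had the largest dorsal change of the 45 genes. It ran from 90.8 to 106 TPM (median 99.3) in control dorsal cortex and had 195, 172, 202 and 161 TPM in mutant dorsal cortex. Its log2 change was 0.88 ± 0.06 there (adjusted p = 9.93e-09) and 0.65 ± 0.06 in the medial cortex (adjusted p = 5.9e-07), with no overlap of libraries.

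Ccnb1, the other B-type cyclin, changed a little less. It had 119, 128 and 132 TPM as lowest, median and highest in control dorsal cortex, against 212, 199, 243 and 202 TPM in the mutant dorsal libraries. The medial values were 170, 180, 160, 183 and 151 TPM in controls and 233, 250, 267 and 248 TPM in mutants. Both regions were again free of overlap, with log2 changes of 0.74 ± 0.06 (dorsal, adjusted p = 5.75e-08) and 0.56 ± 0.06 (medial, adjusted p = 2.77e-06). Cdc25c, a phosphatase that activates Cdk1, had the smallest dorsal change of this role, 0.66 ± 0.06 (adjusted p = 1.37e-07), from 43.7 to 50.2 TPM in controls to 81.9, 75, 80.5 and 65.5 TPM in mutants. Ccna2, the cyclin that acts from S phase to early mitosis, was the most abundant of this role, with 166 ± 11.0 TPM in control dorsal (SD, n = 6) and 277 ± 22.7 TPM in mutant dorsal cortex (n = 4), and 207 ± 14.6 (n = 5) and 312 ± 12.7 TPM (n = 4) in the medial pieces. Cdc25b, the phosphatase that starts Cdk1 activation, went from 32.0 ± 1.96 to 52.9 ± 5.66 TPM dorsally and from 38.1 ± 2.24 to 55.9 ± 2.13 TPM medially. Neither had an overlap between genotypes. Foxm1, the transcription factor of the programme, was present at low levels, from 12.4 to 20.1 TPM (median 15.9) in control dorsal libraries. The mutant dorsal libraries had 26.9, 26.7, 36.4 and 26.5 TPM, so library 3 stood above the other mutants. Its log2 change was 0.79 ± 0.13 (adjusted p = 0.000118), and in the medial cortex 0.54 ± 0.13 (adjusted p = 0.00327), where it was lost without control embryos 2, 3 and 4 (0.44, adjusted p = 0.124).

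The 6 spindle genes all rose in the dorsal cortex and 5 of them in the medial cortex (median log2 changes 0.76 and 0.56). Hmmr, a microtubule-associated protein of the spindle, showed the largest dorsal change of this role. It had 29.9 to 38.3 TPM (median 35.9) in control dorsal and 63.5, 58.8, 74.3 and 56.3 TPM in mutant dorsal cortex. The groups did not overlap, and the change was 0.85 ± 0.09 (adjusted p = 1.24e-06), against 0.57 ± 0.09 in the medial cortex (adjusted p = 0.000152). Plk1, the kinase that matures centrosomes and builds the bipolar spindle, went from 43.9 to 52.5 TPM (median 45.4) in control dorsal libraries to 81.6, 75.2, 96.8 and 70.1 TPM in mutant dorsal ones. The groups did not overlap, and the log2 change was 0.78 ± 0.08 (adjusted p = 4.31e-07); in the medial cortex it was 0.55 ± 0.08 (adjusted p = 3.95e-05). Aurka, the kinase of the spindle poles, went from 54.6 ± 4.70 to 93.7 ± 11.7 TPM dorsally and from 75.0 ± 6.74 to 114 ± 3.84 TPM medially. Tpx2, which activates Aurka on microtubules, went from 97.8 ± 9.28 to 167 ± 18.5 TPM and from 125 ± 11.1 to 184 ± 13.3 TPM. Nusap1, which bundles spindle microtubules, went from 97.4 ± 5.50 to 165 ± 26.1 TPM and from 126 ± 5.11 to 183 ± 17.4 TPM. These 3 rose in both pieces with no overlap of libraries. Aspm, a spindle-pole protein whose loss causes primary microcephaly, had the smallest dorsal change of this role. Its control dorsal libraries ran from 32 to 43.3 TPM (median 36.2) and its mutant dorsal ones had 54.8, 45.5, 56.5 and 46.7 TPM, a change of 0.46 ± 0.09 (adjusted p = 0.000833). In the medial cortex the controls had 51.6, 49.8, 46.1, 60.8 and 48.4 TPM and the mutants 55.7, 54.3, 65.5 and 59.3 TPM. These medial groups overlapped, with control medial library 5 above 3 of the 4 mutants, and the change of 0.19 ± 0.10 did not pass (adjusted p = 0.122). It passed with median-ratio rescaling (adjusted p = 0.0168), with quantile normalization (adjusted p = 0.03) and without control medial library 5 (adjusted p = 0.0379).

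The chromosomal passenger complex, which corrects faulty attachments and later guides cytokinesis, rose as a whole: 4 of 4 genes in each piece, with medians of 0.72 (dorsal) and 0.52 (medial). Aurkb, its kinase, had 50 to 62.4 TPM (median 57.1) in control dorsal and 106, 85.6, 109 and 79.6 TPM in mutant dorsal cortex. In the medial cortex it had 84.3, 83.7, 75.6, 85.4 and 69.8 TPM in controls and 115, 111, 119 and 105 TPM in mutants. Both sets were separate, with log2 changes of 0.72 ± 0.09 (adjusted p = 4.36e-06) and 0.49 ± 0.09 (adjusted p = 0.000326). Birc5, the subunit that brings the complex to centromeres, had a log2 change of 0.73 ± 0.07 in the dorsal cortex (adjusted p = 4.02e-07), and Incenp, the scaffold, the smallest of this role at 0.64 ± 0.09 (adjusted p = 2.09e-05). Cdca8, or borealin, was the least abundant subunit in mutant medial cortex, at 58.8 ± 3.15 TPM against 40.4 ± 2.68 TPM in controls, and dorsally it went from 30.5 ± 2.77 to 51.2 ± 7.49 TPM.

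**Figure D2:**
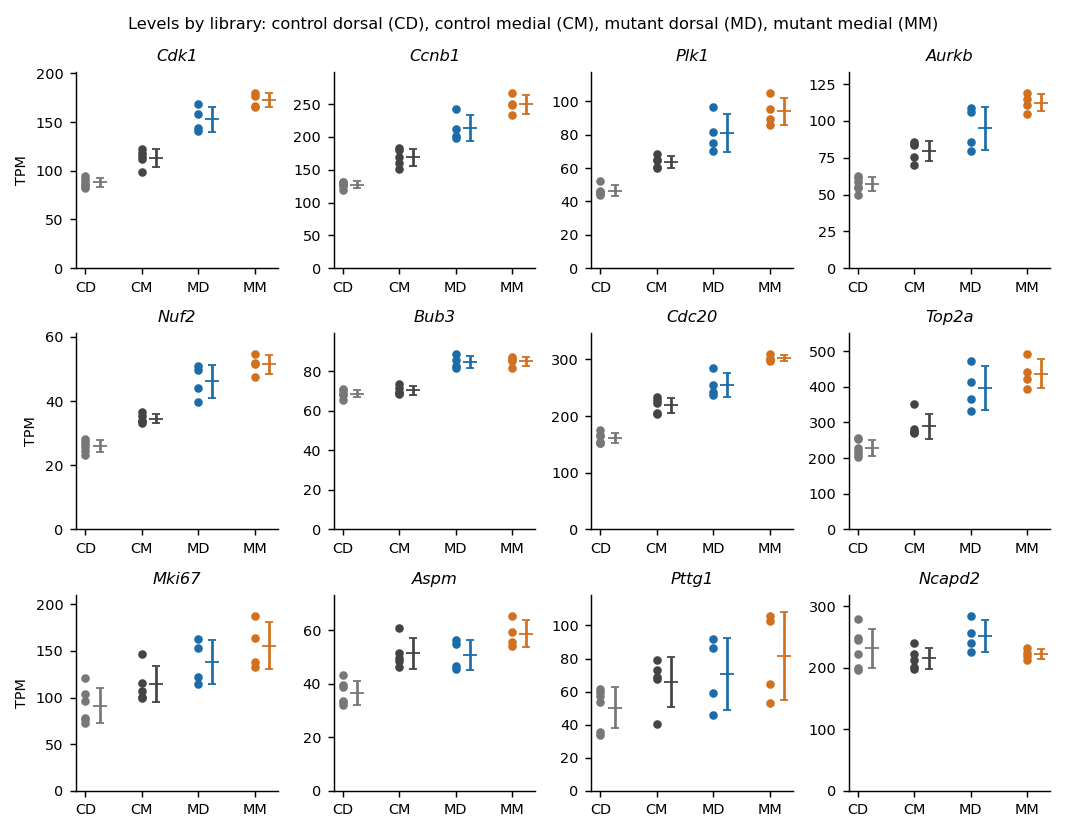
Expression of selected mitotic genes in each library, in TPM, by group. CD and CM are control dorsal and control medial, MD and MM mutant dorsal and mutant medial; points are libraries and bars are group means ± SD. Cdk1 and Cdc20 separate mutant from control libraries in both pieces, while Pttg1 and Ncapd2 overlap.

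Among the 8 centromere and kinetochore genes, 8 rose in the dorsal and 7 in the medial cortex (medians 0.68 and 0.46). Nuf2, a subunit of the Ndc80 complex that grips the microtubule end, had the largest dorsal change of this role. Control dorsal libraries ran from 23.3 to 28.1 TPM (median 26.3), and mutant dorsal ones had 49.6, 44.2, 51 and 39.7 TPM, with no overlap. The change was 0.80 ± 0.07 (adjusted p = 6.46e-08), and 0.56 ± 0.07 in the medial cortex (adjusted p = 7.56e-06). The other subunits of this complex rose in both pieces too. In the dorsal cortex Ndc80 went from 48.3 ± 2.06 to 81.9 ± 9.61 TPM, Spc24 from 52.0 ± 6.29 to 86.9 ± 16.2 TPM and Spc25 from 62.5 ± 3.89 to 100 ± 6.52 TPM. Spc25 had a medial change of 0.63 ± 0.08 (adjusted p = 8.93e-06), close to its dorsal one of 0.67 ± 0.07 (adjusted p = 2.21e-06). Cenpa, the histone H3 variant that marks the centromere, went from 59.3 ± 3.59 to 96.8 ± 10.2 TPM dorsally, and Knstrn, a spindle and kinetochore adaptor, from 40.8 ± 2.13 to 59.0 ± 5.99 TPM. Cenpf, a large protein of the outer kinetochore, had the smallest dorsal change of this role. Its libraries ran from 36.4 to 51.3 TPM (median 42.9) in control dorsal cortex, against 63.1, 53.1, 66.2 and 50.1 TPM in the mutants. Mutant library 4 lay within the control range, and the change was 0.42 ± 0.11 (adjusted p = 0.00611); without control embryos 2, 3 and 4 it was 0.31 (adjusted p = 0.093). In the medial cortex, controls had 64.2, 59.7, 55.5, 75.2 and 63.2 TPM and mutants 68.9, 67.3, 85.7 and 71.7 TPM. The medial groups overlapped and the change of 0.21 ± 0.11 did not pass (adjusted p = 0.165), although it did with median-ratio rescaling (adjusted p = 0.0317). Cenpe, the kinesin of the kinetochore, went from 40.3 ± 5.98 to 65.2 ± 11.3 TPM dorsally and from 55 ± 7.80 to 74.6 ± 14.1 TPM medially, where libraries overlapped. Its medial increase (0.43 ± 0.14, adjusted p = 0.0189) was lost without mutant medial library 3 (adjusted p = 0.0846) and without control embryos 2, 3 and 4 (adjusted p = 0.309). Without these embryos the medial increase of Spc24 did not pass either (adjusted p = 0.104).

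All 5 spindle checkpoint genes rose in both pieces (medians 0.69 and 0.51). Bub1, the checkpoint kinase, had 46.8 to 57.2 TPM (median 53.6) in control dorsal and 95.3, 84.6, 105 and 79.4 TPM in mutant dorsal cortex. The log2 change was 0.76 ± 0.08 (adjusted p = 9.48e-07), the largest of this role, with no overlap. Bub1b, which encodes BubR1, a part of the inhibitor of Cdc20, was the most abundant checkpoint gene, at 103 ± 7 TPM in control dorsal and 167 ± 21.6 TPM in mutant dorsal cortex. Mad2l1, the Mad2 that binds Cdc20, was the least abundant, at 19.8 ± 0.891 and 33.4 ± 2.53 TPM. Ttk, the Mps1 kinase that starts checkpoint signalling, went from 25.5 ± 1.55 to 41.4 ± 4.70 TPM. Each of these was also higher in the mutant medial piece, with log2 changes of 0.51 ± 0.08 for Bub1b, 0.56 ± 0.06 for Mad2l1 and 0.46 ± 0.07 for Ttk. Bub3, the WD-repeat protein that brings Bub1 and BubR1 to kinetochores (chr7:131560222-131571895, plus strand), had the smallest change of this role. It ran from 65.5 to 71 TPM (median 68.5) in control dorsal cortex and had 85.9, 81.9, 88.6 and 82.7 TPM in mutant dorsal cortex. The medial values were 69, 71.3, 68.4, 73.5 and 69.4 TPM in controls and 81.8, 85.2, 87.1 and 86 TPM in mutants. Small as the changes were, 0.30 ± 0.03 (adjusted p = 2.41e-06) and 0.27 ± 0.03 (adjusted p = 1.44e-05), mutant and control libraries did not overlap in either region.

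Of the 5 anaphase genes, 4 rose in each piece (medians 0.67 and 0.46). Sgo1, the shugoshin that protects centromeric cohesion, showed the largest dorsal change of this role. It ran from 22.7 to 29.4 TPM (median 25.7) in control dorsal libraries and had 45.4, 42.7, 53.5 and 42.3 TPM in mutant dorsal ones, a change of 0.81 ± 0.08 (adjusted p = 7.34e-07). The medial change, 0.68 ± 0.09 (adjusted p = 1.14e-05), was the largest of the 45 genes in that piece. Cdc20, the activator of the anaphase-promoting complex, was among the most abundant: 152, 159 and 175 TPM as lowest, median and highest in control dorsal cortex, and 255, 242, 285 and 237 TPM in mutant dorsal cortex. In the medial cortex it had 223, 233, 206, 229 and 203 TPM in controls and 301, 300, 309 and 297 TPM in mutants. The 4 groups stood in separate ranges, with log2 changes of 0.66 ± 0.05 (dorsal, adjusted p = 6.46e-08) and 0.46 ± 0.06 (medial, adjusted p = 7.13e-06). Ube2c, the ubiquitin-conjugating enzyme that works with the complex, went from 64.0 ± 4.48 to 103 ± 11.2 TPM dorsally and from 85.4 ± 6.08 to 118 ± 8.6 TPM medially. Espl1, or separase, had the lowest level of the 45 genes in control dorsal cortex, 14.1 ± 2.05 TPM, and 23.1 ± 3.66 TPM in mutant dorsal cortex. Its medial increase (0.43 ± 0.12, adjusted p = 0.00858) was lost without control embryos 2, 3 and 4 (adjusted p = 0.177).

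Pttg1, or securin, which holds separase inactive until anaphase (chr11:43420250-43426251, minus strand), passed in neither piece. Its control dorsal libraries 1 to 6 had 33.7, 57.3, 60.0, 53.5, 35.5 and 61.6 TPM, and the mutant dorsal libraries 1 to 4 had 91.6, 86.6, 59.0 and 46.1 TPM. Control medial libraries 2 to 6 had 73.2, 79.4, 67.8, 40.1 and 68.7 TPM, and mutant medial libraries 106, 103, 64.6 and 53.3 TPM. Within each group, low and high values went by number: embryos 1 and 5 of the controls and 3 and 4 of the mutants were low in each piece sequenced. The log2 changes were 0.47 ± 0.25 (dorsal, adjusted p = 0.156) and 0.28 ± 0.26 (medial, adjusted p = 0.419). The within-group SD of Pttg1 was 0.42 on the log2 scale, the widest of the 45 genes, against a median of 0.12 for the 45 and 0.13 for all tested genes.

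The 3 cytokinesis genes rose in both pieces (medians 0.68 and 0.52). Ect2, which activates RhoA at the division plane, had 58.4 to 69.3 TPM (median 65.9) in control dorsal and 112, 99.3, 122 and 94.6 TPM in mutant dorsal cortex. Its change was 0.70 ± 0.06 (adjusted p = 2.33e-07), the largest of this role. Anln, the scaffold of the contractile ring, had the smallest, 0.66 ± 0.08 (adjusted p = 2.71e-06). Prc1, which bundles the microtubules of the central spindle, lay between them, going from 64.1 ± 5.63 to 103 ± 9.01 TPM dorsally and from 83.4 ± 8.16 to 117 ± 6.96 TPM medially.

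Of the 7 genes of chromosome structure, 6 rose in each piece (medians 0.61 and 0.51). Ncapg, a subunit of condensin I, had 32.7 to 41.3 TPM (median 38.9) in control dorsal and 66.9, 66.9, 80.5 and 60.7 TPM in mutant dorsal cortex, without overlap. Its change of 0.84 ± 0.10 (adjusted p = 2.76e-06) was the largest of this role. Top2a, the topoisomerase that untangles sister chromatids, had 202, 223 and 257 TPM as lowest, median and highest in control dorsal cortex and 413, 332, 473 and 366 TPM in mutant dorsal cortex. In the medial cortex it had 272, 281, 274, 352 and 270 TPM in controls and 394, 422, 491 and 440 TPM in mutants. Within each piece every mutant library was above every control library, and the log2 changes were 0.78 ± 0.10 (dorsal, adjusted p = 8.06e-06) and 0.59 ± 0.10 (medial, adjusted p = 0.000203). Mki67, the coat protein of mitotic chromosomes and a routine marker of cycling cells, varied more. It ran from 72.6 to 121 TPM (median 86.9) in control dorsal libraries and had 153, 115, 163 and 122 TPM in mutant dorsal ones, with mutant library 2 inside the control range. The medial values were 101, 100, 107, 147 and 116 TPM in controls and 133, 138, 188 and 164 TPM in mutants, again with overlap. The changes were 0.60 ± 0.15 (adjusted p = 0.00457) and 0.45 ± 0.16 (adjusted p = 0.0297). The dorsal call was lost without control embryos 2, 3 and 4 (adjusted p = 0.0765). Medially, Mki67 no longer passed when control medial library 2 (adjusted p = 0.0651), 3 (0.0657) or 4 (0.0569) or mutant medial library 3 (0.107) or 4 (0.0712) was left out, or control embryos 2, 3 and 4 together (0.407).

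Ncapd2, another condensin I subunit (chr6:125168007-125191701, minus strand), passed in neither piece although it had the highest mean of the 45 genes in control dorsal cortex. Control dorsal libraries 1 to 6 had 199, 279, 222, 245, 197 and 249 TPM, and the mutant dorsal ones 241, 225, 257 and 285 TPM. Control medial libraries had 223, 213, 240, 202 and 198 TPM and mutant medial ones 219, 213, 224 and 233 TPM. All 4 groups overlapped, with log2 changes of 0.13 ± 0.09 (adjusted p = 0.275) and 0.05 ± 0.09 (adjusted p = 0.704). Its partners in condensin I stood lower in control dorsal cortex, at means of 158 TPM for Smc4, 115 TPM for Smc2, 55.9 TPM for Ncaph and 37.9 TPM for Ncapg. In mutant dorsal cortex these partners reached 242, 184, 86.1 and 68.8 TPM on average (Smc4, Smc2, Ncaph and Ncapg), and all of them rose in both pieces. The small Cajal body RNA gene Scarna10 lies within Ncapd2 on the same strand and was listed at 0 TPM in 19 of 19 libraries; whether its reads entered the Ncapd2 value was not tested. Among the 45 genes, 25 share genomic sequence with another annotated gene and 10 with a protein-coding gene of the table, and the use of strand in counting is not given in the sources used here.

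**Figure D3:**
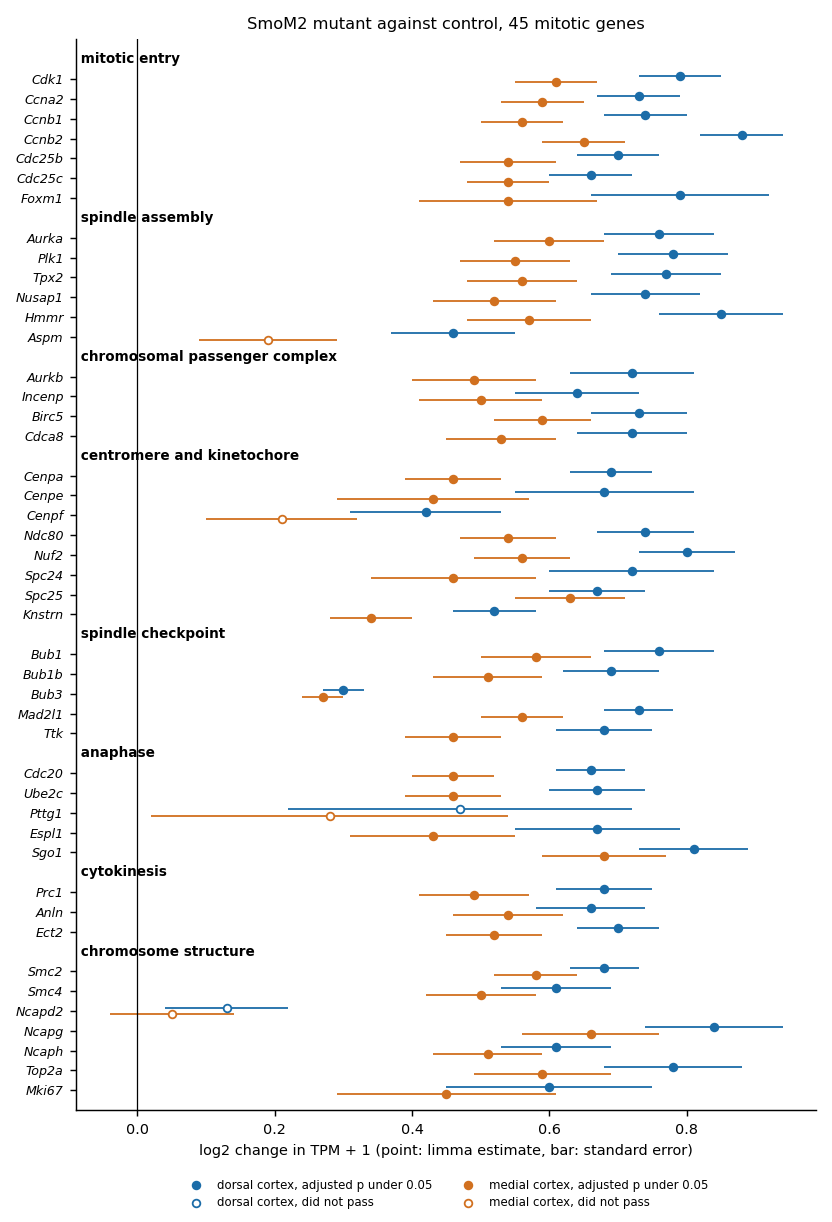
Log2 change from control to mutant for each of the 45 genes, on the scale log2(TPM + 1), in the dorsal and the medial cortex, ordered by role. Points are estimates (filled where the adjusted p was under 0.05) and bars their standard errors. All estimates lie above 0, and Ncapd2 (0.13 and 0.05) lies nearest to it.

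Whether the genotype effect differed between the pieces was tested as the medial minus the dorsal change, which uses the same libraries as both. None of the 45 genes passed (limma, adjusted p), and 1 of all tested genes did (0.0074%). With the embryo as a random block, 0 of the 45 passed again, while 24 of all tested genes had a larger and 25 a smaller medial change. At an unadjusted p under 0.05, 10 of the 45 had a smaller medial change and 0 a larger one, where 294 and 157 of all tested genes did. All 45 estimates were below 0, from -0.28 (Hmmr, SE 0.13) to -0.03 (Bub3, SE 0.05), with a median of -0.19 against -0.02 for all tested genes. The genes share libraries and vary together, so the 45 estimates are not 45 separate observations.

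In control embryos the same genes were more abundant in the medial than in the dorsal piece. Of the 45, 40 were higher medially and 0 lower (0 also at an unadjusted p under 0.05), where 17.6% of all tested genes were higher and 14.9% lower. With the embryo as a random block 41 of the 45 were higher, and the counts over all tested genes went from 2373 to 3588 higher and from 2014 to 3026 lower. The median log2 difference was 0.38, against 0.01 for all tested genes, with single values from -0.10 (Ncapd2) to 0.55 (Cenpf), and the libraries of 37 genes did not overlap, against 11.1% of all tested genes. These control libraries also enter the genotype comparisons, so the comparisons are not independent. Within embryos the order was steady: 43, 43, 44, 45 and 43 of the 45 genes were higher in the medial piece of control embryos 2 to 6, with median log2 differences of 0.34, 0.43, 0.44, 0.45 and 0.33. Without control embryos 2, 3 and 4, which leaves 3 dorsal and 2 medial control libraries, the median of the 45 was 0.36 and 0 passed, and over all tested genes 8 were higher and 3 lower.

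By role, the regional difference in controls covered all 7 genes of mitotic entry, all 6 spindle genes, all 4 passenger genes and all 3 cytokinesis genes. Cenpf had the largest difference, 0.55 ± 0.10 (adjusted p = 0.000716), followed by Espl1, with 0.53 ± 0.11 (adjusted p = 0.00135). Aurkb differed by 0.48 ± 0.08 (adjusted p = 0.000295). Aspm differed by 0.47 ± 0.09 (adjusted p = 0.000582) and Cdc20 by 0.44 ± 0.05 (adjusted p = 2.49e-05). Aspm and Cenpf, the genes that passed between genotypes in the dorsal piece alone, were at 46.1 TPM or more and at 55.5 TPM or more in every control medial library, above every control dorsal library. The 5 genes that did not pass were Spc25, Bub3, Pttg1, Ncapd2 and Mki67. Within embryos, though, Pttg1 was higher medially in 5 of 5 control and 4 of 4 mutant embryos. Its control difference was 0.39 ± 0.24 (adjusted p = 0.237), and 0.33 ± 0.14 with the embryo as a block (adjusted p = 0.0647). Bub3 and Mki67 were also higher medially in 5 of 5 control embryos, against 2 of 5 for Spc25 and 1 of 5 for Ncapd2. Spc25 averaged 62.5 TPM in control dorsal and 61.1 TPM in control medial cortex (log2 difference -0.04 ± 0.07, adjusted p = 0.734), although it rose in the mutants. Bub3 differed by 0.03 ± 0.03 (adjusted p = 0.462), and Mki67 by 0.33 ± 0.14 (adjusted p = 0.0828), which passed with the embryo as a block (0.35 ± 0.10, adjusted p = 0.00636) and without control dorsal library 5 (adjusted p = 0.026). Foxm1 differed by 0.34 ± 0.12 (adjusted p = 0.0339), a call lost without control dorsal library 2 (adjusted p = 0.0618), 4 (0.0728) or 6 (0.079), or without control medial library 2 (0.0539), 3 (0.0573) or 5 (0.0951). That of Smc2 was lost without control medial library 5 (adjusted p = 0.0586).

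In mutant embryos the signed regional difference was lower for each of the 45 genes, which restates the difference of the genotype effects above, and fewer passed. For Ncapd2 (-0.10 in controls, -0.17 in mutants) and Spc25 (-0.04 and -0.08), which lay below 0, that means a wider gap. Of the 45, 6 were higher medially and 0 lower (0 also at an unadjusted p under 0.05), where 8.03% of all tested genes were higher and 10.8% lower; at an unadjusted p under 0.05, 26 were higher. The 6 were Ccnb1, Aurka, Cenpa, Knstrn, Bub1b and Cdc20. Ccnb1 differed by 0.22 ± 0.07 (adjusted p = 0.0236) and Cdc20 by 0.25 ± 0.06 (adjusted p = 0.00832), while Cdk1 with 0.18 ± 0.06 (adjusted p = 0.0641) and Aurkb with 0.25 ± 0.09 (adjusted p = 0.0687) did not pass. The median was 0.18, against 0.00 for all tested genes, and the libraries of 3 genes (Aurka, Cenpf and Cdc20) did not overlap, against 7.11% of all tested genes. Within embryos 28, 44, 41 and 43 of the 45 genes were higher in the medial piece of mutants 1 to 4, with median differences of 0.04, 0.30, 0.11 and 0.29. Mutant embryos 1 and 3 therefore had the smallest gaps.

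The mutant count depended on the model and on single libraries. With the embryo as a random block, 31 of the 45 were higher and 1 lower (Ncapd2, -0.17 ± 0.07, adjusted p = 0.0477), where 2490 of all tested genes were higher and 2793 lower. Fitted to the 8 mutant libraries alone, 0 of the 45 passed. The count was 1 without mutant dorsal library 2, mutant dorsal library 4 or mutant medial library 3, and 27 without mutant dorsal library 3, the one with the highest share of mitotic transcripts in its group. A difference that passed in controls and not in mutants is not thereby shown to differ: that test is the same difference of the genotype effects, in which 0 of the 45 genes passed with or without the embryo block.

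**Figure D4:**
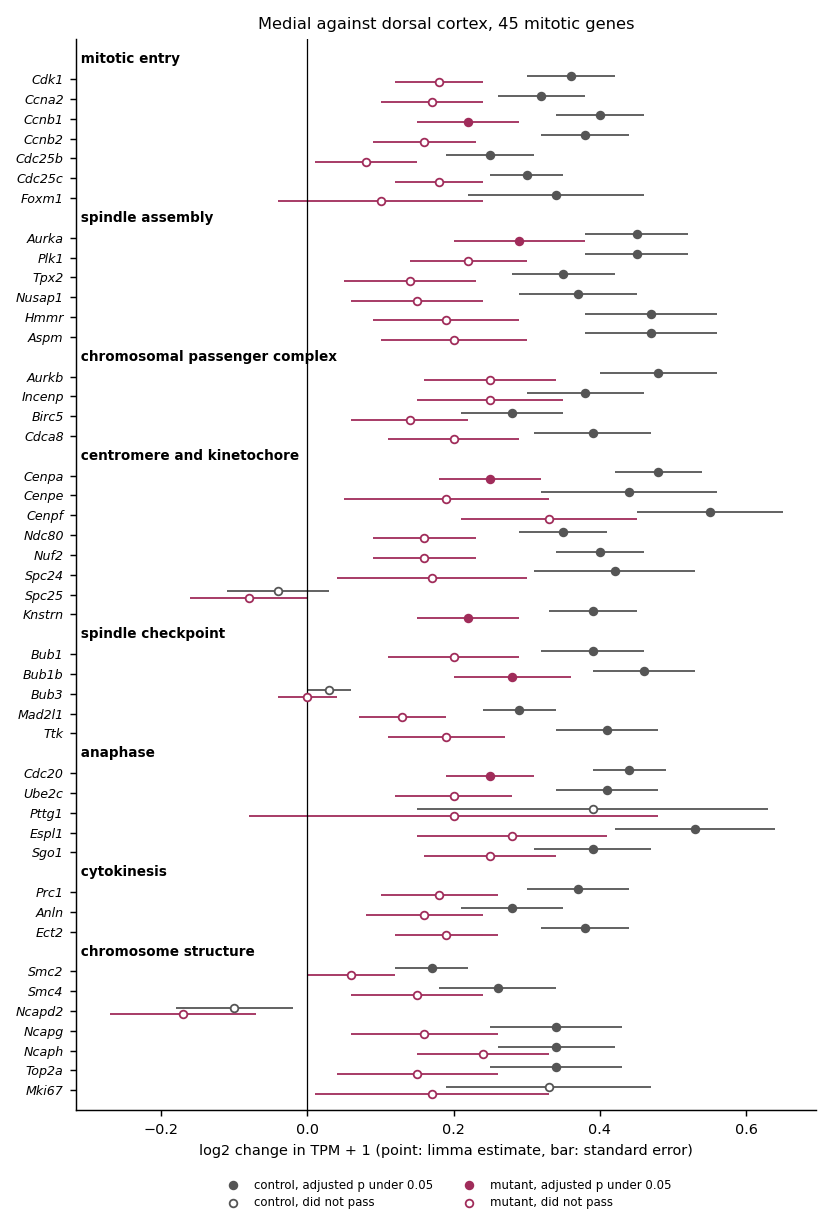
Log2 difference between medial and dorsal cortex for each of the 45 genes, on the scale log2(TPM + 1), in control and in mutant embryos, ordered by role. Points are estimates (filled where the adjusted p was under 0.05) and bars their standard errors. The control values have a median of 0.38 and the mutant values of 0.18, and Ncapd2 lies below 0 in both.

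The 45 genes varied together between libraries of a group. Each library's deviation from its group mean was taken on the log2 scale, and each gene was set against the mean of the other members over 19 libraries. These deviations share embryos between pieces, so the correlations are given as a description. The median correlation was 0.854, with Bub1 highest at 0.983, and 42 of the 45 were over 0.5; the median over all other tested genes was 0.0279. Cenpa, the centromeric histone, stood at 0.463. Pttg1 at -0.383 and Ncapd2 at -0.328 went against the rest, and these are also the genes that passed in none of the 5 comparisons without an embryo block. The mean deviation of the members was 0.07, -0.09, 0.18 and -0.15 in mutant dorsal libraries 1 to 4, so libraries 1 and 3 were high and 2 and 4 low across the programme. In the mutant medial libraries it was -0.08, 0.01, 0.11 and -0.05, and control medial library 5 stood at 0.13.

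The genes outside the list whose deviations were most like the members' mean were Kif22 (r = 0.964), Esco2 (0.956), Kif15 (0.943), Kif4 (0.934), Tmpo (0.928), Grb10 (0.917), Depdc1a (0.917), Cdca2 (0.913), Cdc45 (0.909) and Plk4 (0.908), over the same 19 libraries. Kif22, Kif15 and Kif4 encode mitotic kinesins, Esco2 an acetyltransferase of cohesin, Cdc45 a part of the replicative helicase and Plk4 the kinase of centriole duplication. Grb10 encodes an adaptor of receptor tyrosine kinases.

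**Figure D5:**
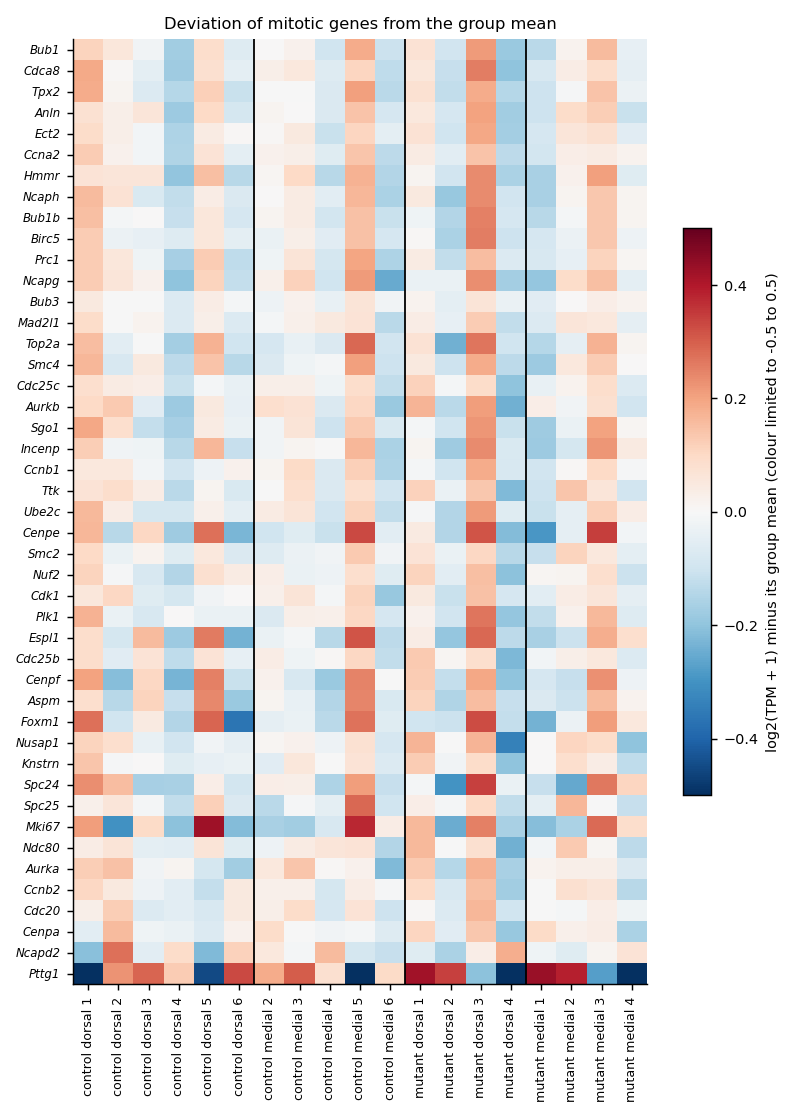
Deviation of each of the 45 genes from its group mean in each of the 19 libraries, on the scale log2(TPM + 1). Red is above and blue below the group mean, with colours limited at -0.5 and 0.5; rows are genes and columns are libraries grouped by genotype and piece. Most genes move together within a library, while Pttg1 and Ncapd2 do not.

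Other genes of the same machinery were read from lists of pathway members, beside the 9.93% of all tested genes that rose dorsally and the 9.44% that rose medially. All 12 mitotic kinesins rose in both mutant pieces (medians 0.71 and 0.51), among them Kifc1, the minus-end motor of spindle poles (dorsal log2 change 0.83), and Kif22, the chromokinesin (0.79). Of 16 outer kinetochore genes 13 rose in each piece, with Kntc1 at 0.91 and Ska1 at 0.87 in the dorsal cortex, and of 19 inner kinetochore and Cenpa-loading genes 15 rose in each, with Cenpi at 0.78. All 3 condensin II genes rose, Ncapg2 by 0.77, Ncapd3 by 0.55 and Ncaph2 by 0.31 in the dorsal cortex. A further 25 of 25 genes of G2 and mitosis rose in both pieces (medians 0.66 and 0.50), among them Pbk, a mitotic kinase, at 0.91. The S-phase list rose in full too, 34 of 34 in both pieces, with medians of 0.76 and 0.66. That list, of DNA replication genes, included Rrm2 (1.22), Cdc45 (1.17) and Cdt1 (1.15), with their dorsal log2 changes.

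Some lists had lower medians. They are read against the shares over all tested genes, of which 9.93% rose and 27.6% fell dorsally and 9.44% and 30.2% medially. Of 17 subunits and regulators of the anaphase-promoting complex, 4 rose and 1 fell in the dorsal cortex, and 3 rose and 0 fell in the medial cortex, with medians of -0.01 and -0.03. Those that rose furthest were its cell cycle regulated partners: Fbxo5 (Emi1, the interphase inhibitor; 0.76 ± 0.06, adjusted p = 5.75e-08) and Ube2s (the elongating ubiquitin-conjugating enzyme; 0.54 ± 0.05, adjusted p = 3.89e-07). The core subunits Cdc27 (0.05 ± 0.05, adjusted p = 0.423), Cdc16 (-0.01 ± 0.05, adjusted p = 0.908) and Anapc1 (-0.03 ± 0.05, adjusted p = 0.69) did not pass. The 1 gene that fell, Anapc2 (-0.11 ± 0.04, adjusted p = 0.0339), moved by about the median of all tested genes (-0.10) and was at -0.01 with median-ratio rescaling (adjusted p = 0.84). Of 13 cohesin genes 5 rose and 2 fell in each piece. Dorsally the ring subunit Rad21 rose by 0.36 ± 0.04 and the regulators Esco2 and Cdca5 by 0.76 ± 0.08 and 0.68 ± 0.07. The loader Mau2 fell there (-0.28 ± 0.05, adjusted p = 0.000245), also with median-ratio rescaling (-0.18 ± 0.04, adjusted p = 0.00311). Esco1 fell as well (-0.15 ± 0.04, adjusted p = 0.0113), a call lost with median-ratio rescaling (-0.06 ± 0.04, adjusted p = 0.311).

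Of 12 genes of MuvB, B-Myb and DREAM, the complexes that read the CHR, 8 rose and 1 fell dorsally, and 7 rose and 0 fell medially. Mybl2, which encodes B-Myb, rose by 1.00 ± 0.09 in the dorsal cortex (adjusted p = 2.56e-07) and by 0.79 ± 0.10 in the medial cortex (adjusted p = 7.73e-06). Of the MuvB subunits Lin54 rose by 0.31 ± 0.05, Lin9 by 0.21 ± 0.06 and Rbbp4 by 0.15 ± 0.03, while Lin37 (-0.10 ± 0.13, adjusted p = 0.581) and Lin52 (-0.06 ± 0.06, adjusted p = 0.432) did not pass. Rbl2, which encodes the p130 of the repressive form in resting cells, was at -0.14 ± 0.04 (adjusted p = 0.0125), a call lost with median-ratio rescaling (-0.05, adjusted p = 0.453). Of 24 centrosome and microcephaly genes 17 rose in the dorsal and 15 in the medial cortex (medians 0.31 and 0.30). Plk4 (0.78 ± 0.07), Tacc3 (0.74 ± 0.07), Stil (0.73 ± 0.10) and Wdr62 (0.70 ± 0.10) rose furthest, while Numa1 (-0.04 ± 0.08, adjusted p = 0.693), Pcnt (0.16 ± 0.09, adjusted p = 0.184) and Cdk5rap2 (0.07 ± 0.08, adjusted p = 0.491) did not pass. In the test of the difference between the pieces, 0 of the 175 genes of these lists passed (limma), where 1 of all tested genes did (0.0074%). At an unadjusted p under 0.05, 16 of the 175 had a smaller and 1 a larger medial change, where 294 and 157 of all tested genes did.

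Markers of cell types moved alongside, and their counts are read against the shares over all tested genes. Of these, 9.93% rose and 27.6% fell dorsally, and 9.44% and 30.2% medially. Between control pieces 17.6% were higher and 14.9% lower medially, and between mutant pieces 8.03% and 10.8%. Of 12 cortical neuron genes, 10 were lower in the mutant in each piece (medians -0.46 and -0.49), or 5 dorsally and 8 medially with median-ratio rescaling, and 10 were lower in the medial than in the dorsal piece of controls and of mutants. Their summed level was 6040 to 6840 TPM in control dorsal, 3860 to 5700 in mutant dorsal, 4010 to 5190 in control medial and 2780 to 3560 in mutant medial libraries. Mutant dorsal libraries had neuron sums of 4770, 5700, 3860 and 5210 TPM, which overlapped those of control medial ones. In mitotic share they lay above all control medial libraries. In control dorsal cortex, library 1 had the lowest neuron sum (6040 TPM) and the highest mitotic share (0.335%). Library 4 had the highest sum there (6840 TPM) and the lowest share (0.294%). Control medial library 6 had the highest sum (5190 TPM) and the lowest share (0.370%) of its group. Library 5, with the highest share there (0.435%), did not have the lowest sum. Within the mutant dorsal group, library 3 had the lowest sum and the highest share (0.568%). Library 4, with the lowest share (0.459%), did not have the highest sum. Mutant medial library 3 had the lowest sum (2780 TPM) and the highest share (0.606%). Library 1, with the lowest share there (0.533%), did not have the highest sum. Of 10 radial glia genes, 5 rose and 2 fell in the mutant dorsal piece and 4 rose and 1 fell in the medial one. With median-ratio rescaling 7 rose and 1 fell dorsally, and 4 rose and 1 fell medially. Their sums were 2630 to 2990 TPM in control dorsal and 2760 to 2930 TPM in mutant dorsal libraries, which overlapped. Between control pieces, 7 of the 10 radial glia genes were higher medially (median 0.47) and 0 lower, with sums of 3240 to 4040 TPM in control medial libraries, and 6 were higher between mutant pieces. Of 8 intermediate progenitor genes, 3 rose and 1 fell dorsally and 2 rose and 2 fell medially, and 5 were higher and 1 lower in the medial piece of controls. Radial glia sums in mutant medial libraries were 3210 to 3530 TPM, which overlapped those of control medial libraries. Intermediate progenitor sums were 1010 to 1190 TPM in control dorsal and 1050 to 1310 TPM in mutant dorsal libraries. In the medial pieces they were 1290 to 1320 TPM in controls and 1250 to 1410 TPM in mutants. Interneuron genes were lower in the mutant medial piece in 5 of 8 (median -0.86) and in the control medial piece in 6 of 8 (-0.91). Cajal-Retzius genes were lower in the mutant medial piece in 4 of 5 (-0.63) and higher in the control medial piece in 5 of 5 (0.80). Microglia genes were lower in the mutant dorsal piece in 4 of 8 (-0.54). With median-ratio rescaling the mutant counts of interneuron, Cajal-Retzius and microglia genes given here were 4, 3 and 3. With quantile normalization they were 2, 2 and 3. The choroid plexus and hem list, which marks tissue next to the medial cortex, summed to between 2.8 and 959 TPM in control medial libraries and to between 2.78 and 165 TPM in mutant medial ones. Their part in the mitotic gene results was not tested.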

How the data were processed

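Total RNA of dissected cortex was made into stranded total RNA libraries, per the labels' protocols, and the authors deposited 1 table of TPM per gene and library; the submitters' processing notes name build mm10, while the aligner and counter are not given. Read depth is unknown, so no counting interval is given. The 45 genes and all lists were chosen with earlier results of these data known. Values were transformed to log2(TPM + 1) and fitted with limma 3.58.1 (R 4.3.3, statmod 1.5.0; 1 mean per group over 19 libraries, trended and robust variances) on the 13520 genes that reached 1 TPM in 4 or more libraries, with Benjamini-Hochberg adjustment over all of them in each of 5 comparisons (threshold 0.05). The fit was tested on simulated data. Members were named by rule: in each role the largest and smallest dorsal change, any that failed in a genotype comparison or passed in the difference, and Aurkb, Plk1, Cdk1, Ccnb1, Cdc20, Mki67, Top2a, Aspm and Foxm1; the remaining members are given by group means; other genes by dorsal adjusted p within a list or by likeness to the members. The core subunits and other genes of the lists that are named without having risen, together with Stil, Wdr62, Rbl2, Mau2 and the MuvB subunits, were chosen after their values were seen. Library numbers come from the titles; descriptions number the medial controls from 1. Same-numbered libraries of a genotype deviated together across genes (9 pairs, r from 0.549 to 0.795, and 18 of 18 libraries were closest to their own number), so they were paired as embryos (block correlation 0.515); across genotypes r ran from -0.436 to 0.138 over 7 pairs. Motifs were searched in the RefSeq promoter entries, and gene positions come from GENCODE M21. Figures were drawn with matplotlib 3.10.9 (Python 3.11.15).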

Additional observations from a re-analysis of the deposited data

Results flagged for a closer look

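In 11 of the 184 sets of libraries checked (the 45 genes and their summed share, each in 4 groups), 1 library stood apart from the rest of its group by Dixon's test, of which chance marks about 1 in 20 sets. Most of these sets involve control medial library 5: Foxm1 at 25.4 TPM (next highest 20.4), Cenpe at 68.8 (52.5), Spc25 at 74.4 (60.4), Espl1 at 25.8 (20.4), Smc2 at 141 (127), Smc4 at 218 (188) and Top2a at 352 (281). In control dorsal library 1, Plk1 was at 52.5 TPM (next 46.5) and Knstrn at 45 (40.8). Among mutants, Foxm1 was at 36.4 TPM in dorsal library 3 (next 26.9) and Aurka at 108 in medial library 4 (next lowest 115).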

How the results depend on the processing

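Of the 45 genes, 43 rose in the mutant dorsal cortex under each alternative tried (pseudocounts, expression filters, scalings, blocks, limma without trend and robust variances, and leaving out each library) except without the 3 control embryos with high Xist, which gave 41. The medial count of 41 ran from 39 to 42 without single libraries and from 40 to 43 under the other alternatives, with 36 without those embryos; with the title number as a replicate block Aspm and Cenpf passed as well (adjusted p = 0.017 and 0.0325). The control regional count ran from 38 to 41 without single libraries, and was 0 without those embryos, which leaves 3 dorsal and 2 medial controls. The mutant regional count of 6 was 31 higher and 1 lower with the embryo as a replicate block, 19 with the title number as a replicate block across genotypes, 0 when fitted to the mutant libraries alone, 2 without the high-Xist embryos, and from 1 to 27 without single libraries. The replicate blocks moved no other count of the 45 genes by over 1.5 times. Over all tested genes, though, the embryo block moved the regional counts in controls and mutants and that of the difference. None of the 45 genes passed in the difference of the genotype effects under any alternative. Signs turned only near 0: the regional difference of Spc25 in controls was 0.03 without the high-Xist embryos, its difference of genotype effects ran from -0.10 to 0.03 without single libraries (0.03 without control medial library 5), and that of Bub3 between mutant pieces ran from -0.01 to 0.03. The cause of these changes was not tested. The medial calls lost without the high-Xist embryos were those of Cenpe, Foxm1, Mki67, Spc24 and Espl1. Without the expression filter, Mki67 no longer passed medially (adjusted p = 0.051), nor did Foxm1 between control pieces (0.0585). Read depth is unknown, all mutant libraries have low Xist, and few libraries per group limit the precision.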
